A study of Mus musculus with 2 samples.

Results

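Small leucine-rich proteoglycans (SLRPs) are secreted matrix proteins built from leucine-rich repeats, many of which carry chains of sulfated sugars. Here 10 of these genes, *Bgn*, *Dcn*, *Lum*, *Fmod*, *Ogn*, *Aspn*, *Prelp*, *Omd*, *Epyc* and *Podn*, were picked by their gene symbols from the 55471 genes measured by RNA-Seq in sorted Pdpn+ kidney cells. They are 10 of 18 SLRP family genes considered, and each symbol matched 1 gene ID. The cells were EpCAM-, CD45-, Nephrin- and Pdpn+ cells from kidneys of male mice on the C57BL/6J background. They came from Ctrl mice (*Hoxb7-Cre-GFP*/+) and from VhlhKO mice (*Hoxb7-Cre-GFP*/+; *Vhlh* loxP/loxP), with 1 library per genotype made from the cells of pooled mice. The *Hoxb7* promoter drives Cre in the tubule epithelium, so the deletion is made outside the cell type that the sort aimed for, and the Cre transgene is carried by both groups. The labels of the Ctrl sample disagree, since another entry gives it as *Vhlh* loxP/loxP and names no Cre. They also mention only an antibody to Pdpn for the selection, where the methods add the other gates. An age of 12 weeks is given for both samples, while other entries give ranges from 8 or 10 to 12 weeks, and the pool is described as 6 mice in some places and 3 in another. The sorted cells recovered in endothelial medium for some hours before RNA was extracted. *Vhl*, the targeted gene, had similar counts in VhlhKO (975) and Ctrl (938), and is a weak check of the labels in cells sorted away from the deleted epithelium. *Pdpn*, the gene of the positive gate, was read 2313 times in VhlhKO and 1836 times in Ctrl. Among 9 other lymphatic markers, counts for VhlhKO and Ctrl were 898 and 710 for *Flt4*, 388 and 86 for *Fgl2*, 142 and 144 for *Prox1* and 128 and 10 for *Lyve1*, while *Mmrn1* and *Ccl21a* had none and *Reln*, *Sox18* and *Tie1* were under 20 in both.

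In tissue, SLRPs bind the surface of collagen fibrils and set their width and spacing. Decorin and biglycan also bind TGF-β, and soluble biglycan can act on the Toll-like receptors Tlr2 and Tlr4 of immune cells. In kidney, biglycan is made by several cell types, whereas decorin and lumican are abundant products of interstitial fibroblasts. The family is sorted into classes by the spacing of cysteines before the repeats and by gene structure. *Bgn*, *Dcn* and *Aspn* belong to class I, *Fmod*, *Lum*, *Prelp* and *Omd* to class II, *Ogn* and *Epyc* to class III, and *Podn* to class V.

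The members were far from equal in these cells. *Bgn*, which encodes biglycan, was at 611 TPM in VhlhKO and 237 TPM in Ctrl, where TPM is the authors' level per gene length and per library. It held 97.6% of the summed TPM of the 10 genes in VhlhKO and 97.2% in Ctrl. By counts the share was 98.8% (98.7 to 98.9) in VhlhKO and 98.5% (98.3 to 98.7) in Ctrl, with exact Clopper-Pearson 95% intervals that cover counting error only. Every other member lay below 8 TPM in both libraries, and *Epyc* had no counts at all. Among these 10 genes, nearly all transcripts were thus *Bgn* transcripts in either library.

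**Figure D1:**
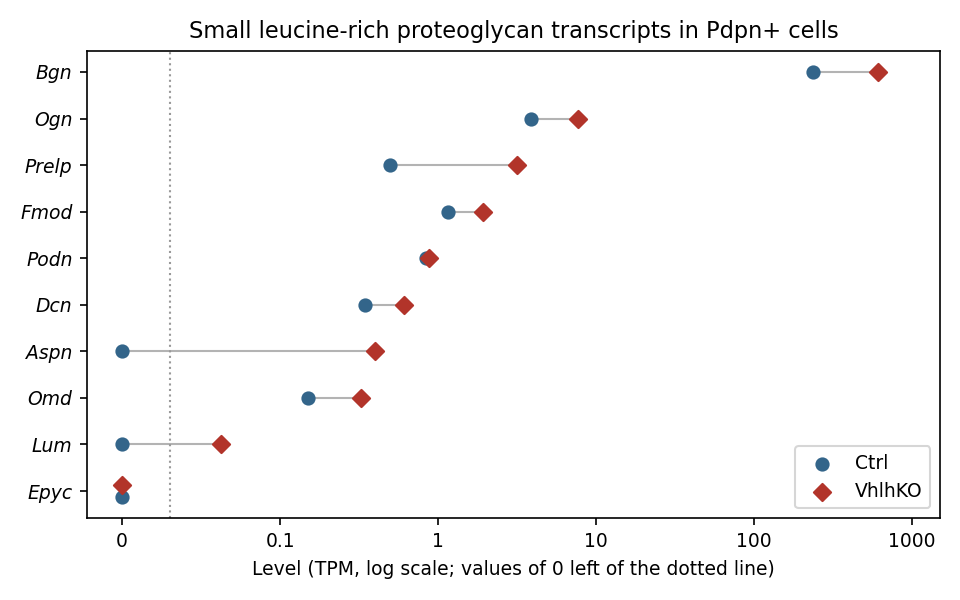
Level of each of the 10 SLRP genes in the Ctrl library (blue circles) and the VhlhKO library (red diamonds), as TPM on a log axis, with values of 0 set left of the dotted line. *Bgn* stands at 237 TPM in Ctrl and 611 TPM in VhlhKO, and the next gene, *Ogn*, at 3.90 and 7.66 TPM.

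To compare the genotypes, counts were scaled between the libraries (TMM) and given as CPM, a count relative to the scaled library total, and 0.5 CPM was added to both sides before the log2 ratio (VhlhKO over Ctrl) was formed. A gene was counted as higher or lower where this log2 ratio reached 2-fold and at least 1 library held at least 20 counts. With 1 library per genotype there was no replicate and no test between the genotypes. Folds given for single genes are ratios of scaled counts without the added amount, and the range after each is its exact conditional binomial 95% interval, which covers counting error and not the spread between mice or pools. Of the 10 members, 6 had enough counts, and 2 of the 6, *Bgn* and *Prelp*, passed 2-fold upward in VhlhKO, and no member passed it downward. For comparison, 1.71% of all 15275 genes with enough counts passed upward and 0.524% downward. The median log2 ratio of the 6 members was 0.70 (0.30 with 5 CPM added and 0.86 with 0.05 CPM added), and it was -0.00065 over all genes. All 6 members had a log2 ratio above 0, as did 49.8% of all genes. Of the 6, *Prelp* and *Dcn* reached 20 counts in VhlhKO only, so the count and the median over the 6 lean toward VhlhKO and are given as a description. In the gene lists below, too, a gene that reached 20 counts in 1 library only could pass 2-fold only toward that library. In bulk RNA, more cells that express a gene and more RNA of that gene per cell cannot be told apart.

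*Bgn* lies on chromosome X of GRCm38 from 73483602 to 73495933 on the plus strand, and GENCODE M21 gives it 8 transcripts. Biglycan carries chondroitin or dermatan sulfate chains. The gene had 35827 counts in VhlhKO and 12856 counts in Ctrl, or 1043 CPM and 403 CPM, which made it 2.59-fold higher in VhlhKO (2.54 to 2.64). In rank by TPM it stood at 180 in VhlhKO and at 608 in Ctrl, among 23961 and 23650 genes with a TPM above 0. It alone took 0.104% of all counts in VhlhKO and 0.0404% in Ctrl. The difference was therefore carried by many reads in both libraries, and counting error leaves it nearly fixed.

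Differences of this size were rare among abundant genes. Of 2128 genes with a mean of at least 100 CPM over both libraries, 14 (0.658%) passed 2-fold upward in VhlhKO and 3 downward. *Bgn* was the 10th of the 2128 by log2 ratio, and the genes ahead of it included *Igfbp3*, *Mgp*, *Htra1*, *Col1a2*, *Col1a1*, *Ltbp2*, *C1qtnf1* and *Fst*, each at a lower CPM than *Bgn* in both libraries. Among the 139 genes with a mean CPM at least that of *Bgn*, it had the highest log2 ratio, 1.37, and the next was 0.67. The genes nearest to *Bgn* by log2 ratio, among those with at least 100 CPM in both libraries, were *Serpinb6b* (1.35), *Des* (1.34), *Selenop* (1.12), *Sgk1* (0.90) and *Anxa1* (0.89). Likeness here is the difference between log2 ratios over 2 libraries, and only *Serpinb6b* and *Des* lay within 0.1 of *Bgn*. *Des*, the gene of desmin in the filaments of muscle and mesangial cells, had 29511 and 10821 counts in VhlhKO and Ctrl.

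**Figure D2:**
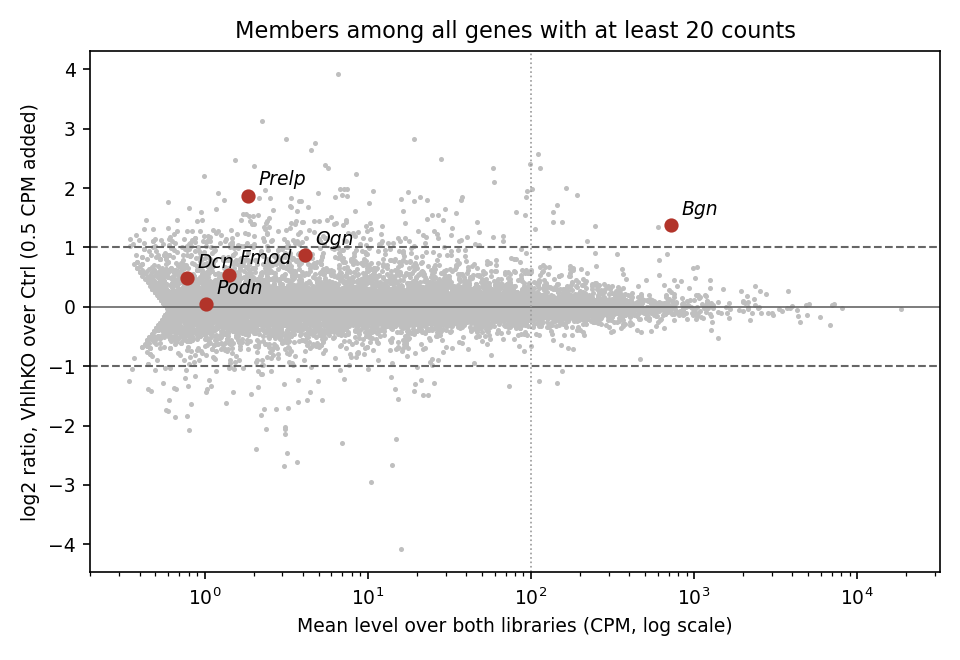
Log2 ratio of VhlhKO over Ctrl with 0.5 CPM added (vertical) against the mean CPM of both libraries on a log axis (horizontal) for the 15275 genes with at least 20 counts in 1 library (grey), with the 6 measured members in red. Dashed lines mark 2-fold and the dotted line 100 CPM, and *Bgn* lies above the band of genes of its abundance, at a log2 ratio of 1.37.

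The 250 bases before the RefSeq start sites of the members that passed 2-fold are shown, to set the sequence beside the values. The *Bgn* sequence covers chrX:73483351-73483600 on the plus strand and the *Prelp* sequence chr1:133921402-133921651 on the minus strand (GRCm38.p6, RefSeq). Both are written 5′ to 3′, and capitals mark the GC box letters GGGCGG, the core bound by Sp1, or their reverse complement.
Bgn: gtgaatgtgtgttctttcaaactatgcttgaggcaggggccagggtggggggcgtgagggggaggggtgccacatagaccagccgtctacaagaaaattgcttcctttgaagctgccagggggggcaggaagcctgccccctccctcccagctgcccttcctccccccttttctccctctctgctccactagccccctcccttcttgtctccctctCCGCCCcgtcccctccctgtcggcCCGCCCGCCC
Prelp: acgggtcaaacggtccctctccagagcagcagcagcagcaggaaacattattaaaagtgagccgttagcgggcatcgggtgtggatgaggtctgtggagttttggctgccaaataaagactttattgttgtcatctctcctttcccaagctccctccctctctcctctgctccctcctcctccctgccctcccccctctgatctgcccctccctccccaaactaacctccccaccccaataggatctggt
The *Bgn* sequence held 3 GC boxes, all on the opposite strand, which begin 34, 10 and 6 bases before the start, the last pair overlapping. It is 64.4% G and C with 7 CpG, and it held no TATAAA on either strand. The *Prelp* sequence held neither GGGCGG nor TATAAA, with 55.6% G and C and 5 CpG. On either strand, GGGCGG occurs in the same window of 32.7% of 32851 RefSeq promoters and TATAAA in 12.4%, and the median promoter has 6 CpG. The hypoxia response core ACGTG, which occurs in 16.6% of promoters, was in neither sequence, and the SMAD box CAGAC, which occurs in 42.2%, was found once in *Prelp*, 161 bases before the start, and not in *Bgn*. These are matches of letters and say nothing of which factor acts there.

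*Prelp* encodes the proline- and arginine-rich end protein, a class II member whose basic end binds heparan sulfate. It lies on chromosome 1 from 133910304 to 133921414 and was read 109 times in VhlhKO and 16 times in Ctrl, or at 3.17 and 0.501 CPM. It was 6.33-fold higher in VhlhKO, with an interval of 3.73 to 11.5, the largest ratio among the members with counts in both libraries. Its log2 ratio of 1.88 ranked 33rd of the 15275 genes. The amounts were small all the same, since *Bgn* TPM was 195-fold that of *Prelp* in VhlhKO and 476-fold in Ctrl. With 5 CPM added in place of 0.5, *Prelp* no longer reached 2-fold.

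The other class II members were scarcer or less different. *Fmod*, which encodes fibromodulin, a keratan sulfate proteoglycan that binds collagen and steers its crosslinking, had 61 counts in VhlhKO and 34 in Ctrl. Its ratio was 1.67 (1.08 to 2.62), within 2-fold by the rule. *Omd*, or osteomodulin, known from bone, had 7 and 3 counts, with a ratio of 2.17 whose interval of 0.495 to 13.0 includes 1. *Lum*, which encodes lumican, the keratan sulfate proteoglycan of cornea and connective tissue, had 1 count in VhlhKO and none in Ctrl. A count of 0 allows up to 3 counts, or 0.0940 CPM in Ctrl, so no fold is given for *Lum*. The class II genes summed to 178 counts in VhlhKO and 53 in Ctrl, 3.12-fold (2.28 to 4.32), and without *Prelp* to 69 and 37, 1.73-fold (1.15 to 2.66).

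*Dcn* encodes decorin, the class I relative of biglycan and the best known SLRP of fibroblasts. It lies on chromosome 10 from 97479609 to 97518143 and had 34 counts in VhlhKO and 18 in Ctrl, or 0.990 and 0.564 CPM. Its ratio was 1.76, with an interval of 0.964 to 3.30 that includes 1, so a difference was not detectable at this depth. With 18 counts in Ctrl, the rule would have needed 56 counts in VhlhKO, a ratio of 2.89. Per length, *Bgn* stood 1009-fold above *Dcn* in VhlhKO and 684-fold above it in Ctrl. *Aspn*, which encodes asporin, a class I member with a stretch of aspartates, had 9 counts in VhlhKO and none in Ctrl. Set against the floor of 3 counts in the Ctrl library, its 9 counts gave a ratio of 2.79. This value leaves out the counting error of the 9 and is no lower bound, and with so few counts *Aspn* was left out of the rule.

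*Ogn*, or osteoglycin (mimecan), a class III member found in bone and vessel walls, was the most abundant member after *Bgn*. Its counts were 189 for VhlhKO and 89 for Ctrl, or 5.50 and 2.79 CPM, and 7.66 and 3.90 TPM. The ratio was 1.97 (1.53 to 2.57), and with 0.5 CPM added the log2 ratio was 0.87, just short of 2-fold. *Epyc*, which encodes epiphycan of growth cartilage, had no counts in either library, which allows up to 0.0873 CPM in VhlhKO and 0.0940 CPM in Ctrl. *Podn*, or podocan, the class V member first described in glomeruli, had 36 and 32 counts, at a ratio of 1.05 (0.631 to 1.74). It was the member with the ratio nearest to 1, but the interval still allows values from well below 1 up to 1.74.

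**Figure D3:**
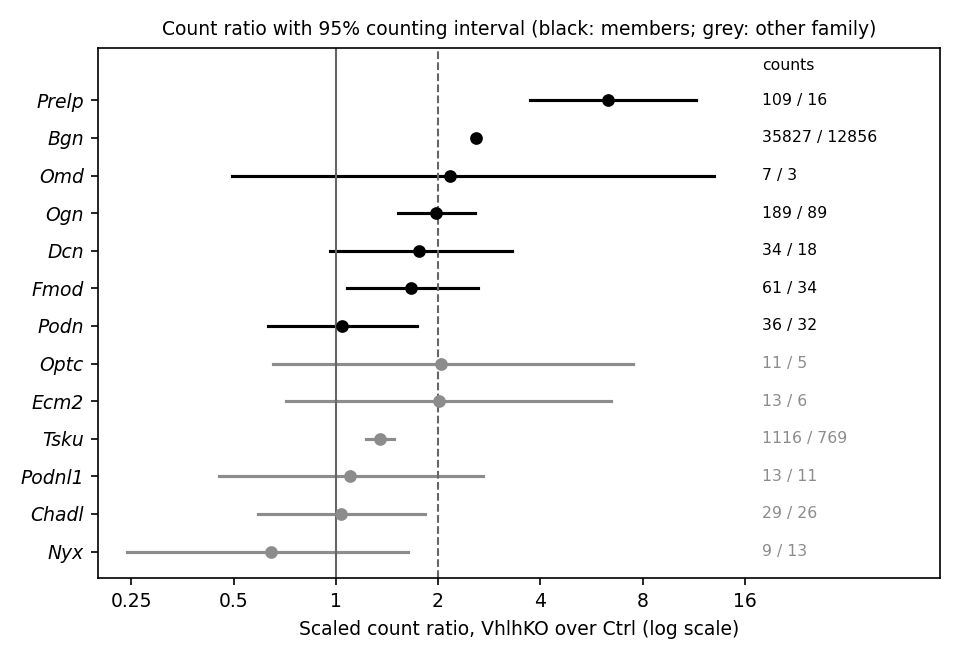
Scaled count ratio of VhlhKO over Ctrl on a log axis for the 7 members (black) and 6 other family genes (grey) with counts in both libraries. Points are ratios, bars are 95% counting intervals, the numbers at the right are counts in VhlhKO and Ctrl, and the dashed line marks a ratio of 2. The *Bgn* interval of 2.54 to 2.64 is narrower than its point, whereas that of *Omd* spans 0.495 to 13.0.

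Since *Bgn* swamps any sum, the other 9 members were also taken alone. Their sums, 446 counts (VhlhKO) and 192 counts (Ctrl), gave a ratio of 2.16 (1.82 to 2.57), beside 2.58 (2.53 to 2.64) for all 10. In Ctrl, *Ogn* held 56.6% of their TPM, *Fmod* 16.8%, *Podn* 12.2% and *Prelp* 7.22%. In VhlhKO, *Ogn* held 51.2%, *Prelp* 21.0%, *Fmod* 12.8% and *Podn* 5.86%. *Prelp* was thus behind *Fmod* and *Podn* in Ctrl and ahead of both in VhlhKO. The 4 members with fewer than 20 counts in both libraries, *Lum*, *Aspn*, *Omd* and *Epyc*, came to 17 and 3 counts together.

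**Figure D4:**
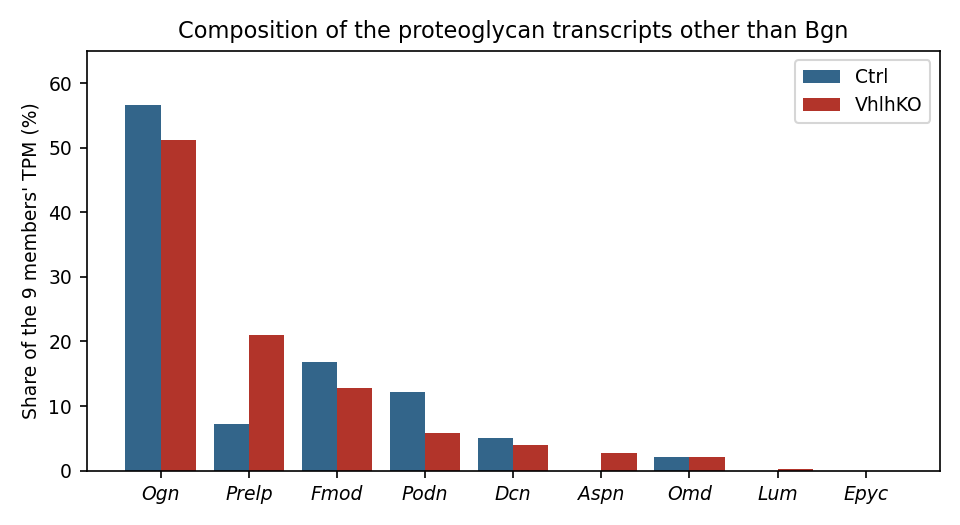
Share of each gene in the summed TPM of the 9 members other than *Bgn*, in percent, for Ctrl (blue bars) and VhlhKO (red bars), without error bars since there is 1 library each. The *Prelp* share is 7.22% in Ctrl and 21.0% in VhlhKO, and *Ogn* is the tallest bar in both.

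Most SLRP genes sit in groups on the mouse chromosomes. *Optc*, *Prelp* and *Fmod* lie within 151 kb of chromosome 1, *Dcn*, *Lum*, *Kera* and *Epyc* within 203 kb of chromosome 10, and *Ecm2*, *Aspn*, *Omd* and *Ogn* within 120 kb of chromosome 13, while *Bgn* and *Podn* (chromosome 4) stand apart from them. The chromosome 1 group had 181 counts in VhlhKO and 55 in Ctrl (3.06-fold, 2.25 to 4.21), the chromosome 13 group 218 and 98 (2.07-fold, 1.62 to 2.65), and the chromosome 10 group 35 and 18 (1.81-fold, 0.996 to 3.39). Most counts of the chromosome 13 group were *Ogn* and most of the chromosome 10 group *Dcn* in both libraries, whereas the chromosome 1 group was led by *Prelp* in VhlhKO and by *Fmod* in Ctrl. Of 14 genes nearest to a member with enough counts, members among them, *Prelp* was the only one past 2-fold. Around *Bgn*, *Haus7*, a spindle protein gene 24.6 kb away, had 298 and 383 counts in VhlhKO and Ctrl, and the phosphatase gene *Dusp9*, 143 kb away, had 86 and 83. *Atp2b4* and *Btg2*, on either side of the chromosome 1 group, had log2 ratios of 0.18 and 0.03. On chromosome 13, *Nol8*, beyond *Ogn*, had a log2 ratio of 0.09, and *Tes3-ps*, before *Aspn*, with 33 and 12 counts, had a log2 ratio of 0.74. Around *Dcn*, *Btg1* and *Atp2b1* had log2 ratios of 0.10 and 0.17, and around *Podn*, *Cpt2* and *Echdc2* had -0.12 and 0.23.

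Overlapping genes bear on the counts of the scarce members. *Aspn*, *Omd*, *Ogn* and *Ecm2* lie inside *Cenpp*, a centromere protein gene on the opposite strand, which had 99 counts in VhlhKO and 90 in Ctrl. Its exons share 7 bases with those of *Aspn* and none with those of *Ogn* or *Omd*. The libraries keep strand, but whether the counting used it is not given in the sources used here. *Gm15851*, antisense to *Prelp* over 350 exon bases, had no counts, nor had *Gm10754*, antisense to *Epyc*. *Podn* overlaps *Scp2* on the same strand without shared exon bases, and *Bgn*, *Dcn*, *Fmod* and *Lum* overlap no other annotated gene.

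The rest of the family was examined from a list of 8 genes. *Tsku*, or tsukushi, a secreted member that binds signaling ligands, had 1116 counts in VhlhKO and 769 in Ctrl, more than any of the 10 members but *Bgn*, with a ratio of 1.35 (1.23 to 1.48). *Chadl* had 29 and 26 counts, and it shares 1023 exon bases with *L3mbtl2* on the opposite strand, which had 858 and 825. *Optc* (11 and 5), *Ecm2* (13 and 6), *Podnl1* (13 and 11) and *Nyx* (9 and 13) were under 20 counts in both libraries, and *Kera* and *Chad*, of cornea and cartilage, had none. None of the 2 measured genes was past 2-fold, and together the 8 genes had a ratio of 1.33 (1.22 to 1.46).

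The enzymes that build the sugar chains were then compared. All 7 genes of the linker that joins a chain to the core protein were measured and stayed within 2-fold, with a median log2 ratio of 0.12. *Xylt1* and *Xylt2*, the xylosyltransferases that start the linker, had ratios of 0.896 (0.814 to 0.985) and 1.24 (1.12 to 1.38). All 16 genes of chondroitin and dermatan sulfate synthesis were also within 2-fold, and 13 of them had a log2 ratio above 0, with a median of 0.28. *Chst15* and *Chst11*, chondroitin sulfotransferases, had ratios of 1.51 (1.43 to 1.60) and 1.44 (1.38 to 1.49), and *Dsel*, an epimerase that turns chondroitin into dermatan, 1.45 (1.35 to 1.56). The interval of each of these leaves out 2 as well as 1.

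Keratan sulfate synthesis had 6 measured genes, of which 1 passed 2-fold upward and none downward (median log2 ratio 0.23). It was *Chst1*, the keratan sulfate sulfotransferase, whose 624 counts in VhlhKO against 268 gave a ratio of 2.16 (1.87 to 2.51). None of 8 genes that supply nucleotide sugars and sulfate was past 2-fold (median 0.03), and *Papss2*, which makes the sulfate donor, had the largest ratio of them, 1.56 (1.36 to 1.78). The genes for the sugar chains thus lay mostly within 2-fold, as did most of the 15275 genes, of which 1.71% passed upward and 0.524% downward. Of the 6 measured core protein genes among the members, 2, *Bgn* and *Prelp*, passed upward and 4 lay within 2-fold.

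Of 15 measured genes whose products share fibrils with SLRPs, 4 passed 2-fold upward and none downward (median log2 ratio 0.37). The type I collagen genes *Col1a2* (3.70-fold, 3.54 to 3.86) and *Col1a1* (3.28-fold, 3.13 to 3.45), the type III gene *Col3a1* (3.60-fold, 3.18 to 4.08) and the tenascin gene *Tnxb* (4.11-fold, 2.28 to 7.96) passed. Each collagen interval lies above that of *Bgn*, and accordingly *Bgn* TPM was 6.38-fold that of *Col1a1* in Ctrl and 5.03-fold in VhlhKO. The microfibril gene *Fbn1* (1.29, 1.25 to 1.33), the type V gene *Col5a2* (1.01, 0.971 to 1.06) and *Col12a1* (0.873, 0.850 to 0.896) lay within 2-fold. Some scarce genes were within 2-fold only once 0.5 CPM was added. They were *Col14a1* (21 and 5 counts, ratio 3.90, 1.43 to 13.2) and *Col6a3* (22 and 6, 3.41, 1.34 to 10.3). In the other direction this held for *Col2a1* (20 and 40, 0.465, 0.257 to 0.814). *Lox*, the lysyl oxidase whose action fibromodulin guides, had a ratio of 1.55 (1.51 to 1.59).

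Among 9 measured proteases that can cleave SLRPs, 1 passed 2-fold upward and none downward. *Htra1*, a secreted serine protease that digests biglycan and decorin, was 4.02-fold higher (3.78 to 4.27), with 5601 counts in VhlhKO and 1295 in Ctrl. *Mmp9*, with 207 and 109 counts, had a ratio of 1.76 (1.39 to 2.25). *Mmp13*, with 28 and 8 counts, had a ratio of 3.25 (1.44 to 8.26), but lay within 2-fold once 0.5 CPM was added. *Tll1*, of the same protease family as *Bmp1*, had a ratio of 0.681 (0.605 to 0.766) and *Adamts5* of 0.900 (0.876 to 0.925), both below 1 beyond counting error. *Bmp1*, which removes the propeptide of biglycan, had 11176 and 9641 counts, a ratio of 1.08 (1.05 to 1.11), and *Mmp2* and *Mmp14* had ratios of 1.00 and 0.987. The list had a median of 0.11. All 19 receptors and signaling partners of SLRPs were measured, and all stayed within 2-fold (median 0.14). *Tlr2* and *Tlr4* had ratios of 1.14 (0.992 to 1.31) and 1.16 (1.08 to 1.24), the decorin uptake receptor *Lrp1* 1.20 (1.19 to 1.21) and the ligand *Tgfb1* 0.969 (0.903 to 1.04). Of 8 large chondroitin sulfate proteoglycans, 4 were measured and none was past 2-fold, with 2 log2 ratios above 0 and a median of -0.13. *Vcan*, which encodes versican, had a ratio of 0.800 (0.780 to 0.820), and *Cspg4*, which encodes the pericyte proteoglycan NG2, had a ratio of 0.831 (0.806 to 0.857).

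**Figure D5:**
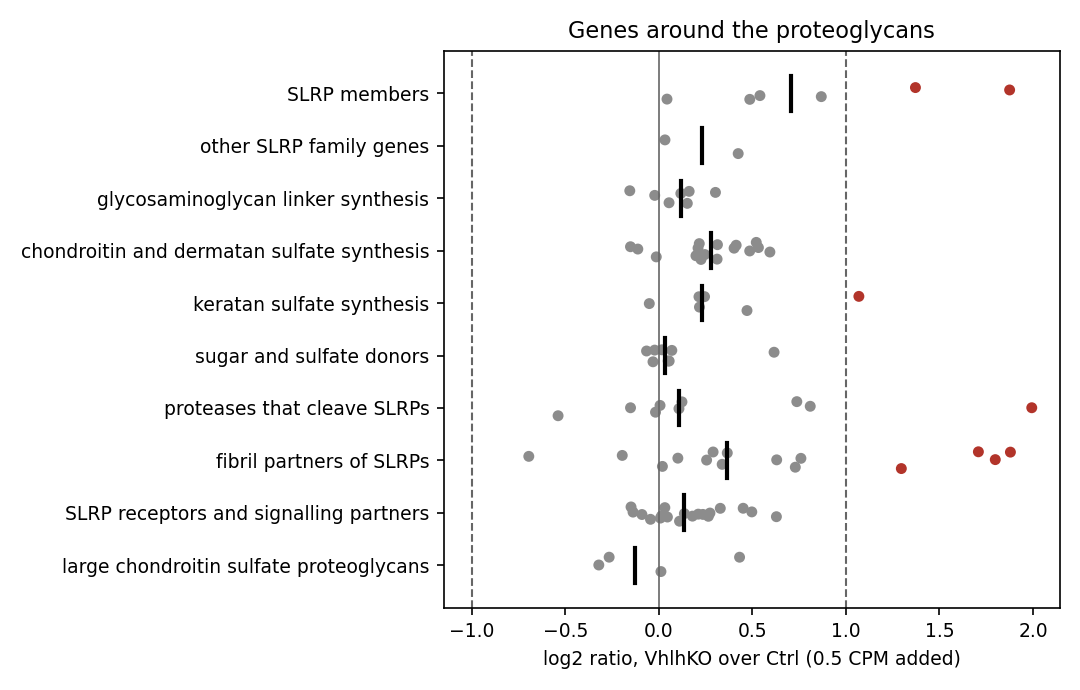
Log2 ratio of VhlhKO over Ctrl with 0.5 CPM added for each measured gene of the SLRP members and 9 related lists (rows). Red points are at least 2-fold higher, dashed lines mark 2-fold and black ticks are medians, which are 0.70 for the members, 0.37 for the fibril partners and -0.13 for the large proteoglycans.

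Markers of other cells were read beside these values, as facts of the same libraries. Counts totalled 34465017 in VhlhKO and 31817115 in Ctrl. Of 14 fibroblast and pericyte markers, 10 were measured, of which 6 passed 2-fold upward and none downward, and the summed level of the list was 931 CPM in VhlhKO and 527 CPM in Ctrl. The 6 were *Col1a1*, *Col1a2*, *Col3a1*, *Pdgfra* (57 and 9 counts), *Mfap5* (51 and 4) and *Postn* (268 and 102). The other 4 measured genes, *Thy1* (123 and 56), *Pdgfrb* (3773 and 2357), *Rgs5* (312 and 205) and *Cspg4* (8012 and 8957), lay within 2-fold. *Cspg4*, also in the list of large proteoglycans, had a ratio of 0.831 and made up 233 CPM of the VhlhKO sum and 281 CPM of the Ctrl sum. *Pi16* (4 and 4) and *Dpt* (1 and 1), markers of adventitial and dermal fibroblasts, were near 0. In 8 measured mesangial and smooth muscle markers, *Des* alone was past 2-fold, with summed levels of 7352 and 7372 CPM and *Ren1* at 0. A log2 ratio above 0 was found for 4 of the 8, *Des* among them. The contractile genes *Cnn1* (0.794, 0.766 to 0.822), *Myh11* (0.803, 0.697 to 0.924), *Tagln* (0.894, 0.888 to 0.901) and *Acta2* (0.977, 0.967 to 0.987) had ratios below 1. Most of both sums came from *Tagln* and *Acta2*. Of 8 macrophage genes, 1, *Lyz2*, was higher, and the whole list summed to 98.3 CPM in VhlhKO and 44.8 CPM in Ctrl. Of 5 measured podocyte genes, 1, *Podxl*, was higher, with a list sum of 753 and 503 CPM. Of 6 measured mesothelial genes, 1, *Msln*, was higher, with a list sum of 177 and 147 CPM and *Lrrn4* at 0. Of that sum, *Wt1*, also in the podocyte list, made up 144 and 130 CPM. Of the 6, 5 had a log2 ratio above 0, and *Upk3b* had a ratio of 0.746 (0.510 to 1.09). Of 7 measured proximal tubule genes, *Aqp1* was higher and 4, *Slc34a1*, *Slc5a2*, *Fbp1* and *Pck1*, were lower (53.1 and 43.8 CPM summed). No gene of the 8 parietal epithelial markers (7519 and 8211 CPM summed) or the 6 measured blood endothelial markers (27.7 and 22.6 CPM) was past 2-fold. In the lymphatic list 5 of 10 genes were measured and 2, *Lyve1* and *Fgl2*, were higher (114 and 88.2 CPM summed). The part of these cells in the SLRP values was not tested.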

How the data were processed

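RNA-Seq of EpCAM-, CD45-, Nephrin- and Pdpn+ kidney cells was available as 1 pooled library for Ctrl and 1 for VhlhKO. Raw counts for each gene and TPM were deposited by the authors in 1 table, beside fold changes and p-values of their own comparison, which were not used. For the upstream steps, the submitters' processing notes list STAR, featureCounts, DESeq2 and cutadapt among others, with GRCm38 as the build and no versions. The lengths implied by counts and TPM were within 5% of the merged exons of GENCODE M21 for 99.3% of 6150 genes, and M21 (GRCm38) supplied coordinates. The deposited counts (34465017 in VhlhKO, 31817115 in Ctrl) received TMM factors of 0.997 and 1.003 (edgeR 4.0.16 in R 4.3.3). The added 0.5 CPM equals 17.2 counts in VhlhKO and 16.0 in Ctrl, which pulls scarce genes toward a log2 ratio of 0.

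No gene was tested, as there was no replicate; intervals are exact 95% intervals of counting error, and PCR copies are not independent molecules. The members and lists were chosen with earlier results of these data known. Named genes are the members, the family, up to 4 genes per list past 2-fold, defining markers, the genes flanking members and the 5 genes nearest to *Bgn* by log2 ratio; other names were picked as examples with their values known. Promoter sequences came from RefSeq and matched 8 of 10 members. Simulated data with counting error only were used to check the 2-fold rule. They held changes larger than 2-fold, no changed scarce genes and no spread between pools, and do not cover those cases. Alternatives were other scalings (DESeq2 1.42.0 size factors, total counts), the authors' TPM, added amounts, count minimums and fold sizes. Python 3.11.15, numpy 2.4.6, pandas 2.3.3, scipy 1.17.1 and matplotlib 3.10.9 were used.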

Additional observations from a re-analysis of the deposited data

How the results depend on the processing

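*Bgn* and *Prelp* stayed at least 2-fold higher in VhlhKO under total count and DESeq2 scaling, the authors' TPM, 0.05 CPM added and every count minimum tried. With 5 CPM added 1 member, *Bgn*, remained, and at 3-fold 1 member, *Prelp*; at 1.5-fold *Ogn* joined them. No member was lower under any of these settings. The ratio of *Bgn* ranged from 2.57 to 2.61 and that of *Prelp* from 6.29 to 6.38 over the scalings tried. Over all genes the counts at least 2-fold higher and lower were 261 and 80 as reported, 394 and 139 by TPM, 435 and 151 with 0.05 CPM added, 66 and 18 with 5 CPM added, 725 and 278 at 1.5-fold, 63 and 25 at 3-fold, and 46 lower with a minimum of 100 counts. With 5 CPM added, the median log2 ratio of the 6 measured members went from 0.70 to 0.30, that of the fibroblast and pericyte list from 1.32 to 0.44, of the macrophage list from 0.78 to 0.24, of the mesothelial list from 0.48 to 0.14 and of the proximal tubule list from -1.33 to -0.22, and with 0.05 CPM added that of the members was 0.86 and that of the proximal tubule list -2.30. No paired analysis was possible because each genotype has 1 library. Counting depth limits *Dcn*, *Omd* and *Podn*, whose intervals include a ratio of 1, and the scarcer members; none of these values covers the spread between mice or pools.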
